A study of Mus musculus with 16 samples.

Results

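The hypoxia-inducible factor (HIF) subunit genes and their oxygen-sensing regulators were located in 3 lists of chromatin regions from immortalized mouse embryonic fibroblasts. The 10 genes were Hif1a, Epas1, Hif3a, Arnt, Arnt2, Vhl, Egln1, Egln2, Egln3 and Hif1an. They were chosen by name with earlier results of these data known, and all 10 were found among 21887 protein-coding genes. Every listed region within 50 kb of a gene was taken, which gave 77 of the 135884 regions in the lists. Of these, 25 carried H3K4me3 (trimethylated lysine of histone H3, found at active promoters), 49 carried H3K27me3 (the mark of Polycomb repression) and 3 carried succinyllysine (lysine bearing a succinyl group).

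The libraries came from 2 cell lines, both with the R26M2rtTA/+ and TetOcre alleles, in which doxycycline induces Cre recombinase. The experimental line was Sdhcfl/fl and the control line Sdhcfl/wt, so that both lines carried at least 1 floxed copy of Sdhc, which encodes an anchor subunit of succinate dehydrogenase, and both received doxycycline at 1 microgram/mL and were collected at day 16. Each line is a single line, and each gave 2 samples of input chromatin and 2 with each antibody, 16 in all. The deposit has 1 region list per antibody for its 4 ChIP samples, and these lists have positions and no heights, so there is no value per sample, no read depth and no comparison of fl/fl with fl/wt. Markers of the labelled cell type were checked: 11 of 12 fibroblast genes had H3K4me3 at a gene end and 0 had H3K27me3. Thy1 was the fibroblast gene without H3K4me3. None of 5 neuronal genes had H3K4me3 and all 5 had H3K27me3, and of 5 hepatocyte genes 0 had H3K4me3 and 3 had H3K27me3. H3K4me3 lay at 3 of 5 epithelial genes and H3K27me3 at 2 of 5. In the endothelial, haematopoietic and pluripotent lists H3K4me3 lay at 1 of 5 genes each, and H3K27me3 at 0, 1 and 2 of 5. Of all protein-coding genes, 55.6% had H3K4me3 and 13.6% had H3K27me3 at an end, so 0 of 12 with H3K27me3 is near that background. No test was made on these short lists.

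HIF is a dimer of an oxygen-regulated alpha subunit and the constitutive partner ARNT. In oxygenated cells the EGLN prolyl hydroxylases, which use 2-oxoglutarate and release succinate, mark the alpha subunit for the VHL ubiquitin ligase, and the asparaginyl hydroxylase encoded by Hif1an (FIH) blocks its coactivator contacts. Succinate can inhibit these hydroxylases, which is why cells without succinate dehydrogenase are known for stabilized HIF.

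The promoters of 4 genes carry the contrasts described below, namely Hif1a (wide H3K4me3), Hif3a (H3K27me3 without H3K4me3), Egln1 (a start between H3K4me3 regions) and Egln3 (H3K4me3 almost entirely on the gene side of the start). Each is the RefSeq window on GRCm38.p6 (mm10) of 250 bases before to 50 bases after the annotated start, 5′ to 3′ on the strand of the gene. Capitals mark ACGTG or GCGTG on either strand, the core letters of the hypoxia response element. The windows lie at chr12:73907617-73907916 on the plus strand (Hif1a), and on the minus strand at chr7:17062378-17062677 (Hif3a), chr8:124949205-124949504 (Egln1) and chr12:54203825-54204124 (Egln3).
Hif1a: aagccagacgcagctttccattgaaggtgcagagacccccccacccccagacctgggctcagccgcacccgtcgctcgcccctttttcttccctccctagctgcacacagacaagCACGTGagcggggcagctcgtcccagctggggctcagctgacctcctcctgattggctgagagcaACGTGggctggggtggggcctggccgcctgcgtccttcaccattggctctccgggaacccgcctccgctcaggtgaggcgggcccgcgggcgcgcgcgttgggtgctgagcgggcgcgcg
Hif3a: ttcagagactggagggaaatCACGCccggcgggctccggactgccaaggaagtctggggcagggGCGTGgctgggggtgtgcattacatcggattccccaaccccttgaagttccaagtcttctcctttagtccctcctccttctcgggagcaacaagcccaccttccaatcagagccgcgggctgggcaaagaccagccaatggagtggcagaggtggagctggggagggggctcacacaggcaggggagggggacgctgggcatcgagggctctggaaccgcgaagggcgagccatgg
Egln1: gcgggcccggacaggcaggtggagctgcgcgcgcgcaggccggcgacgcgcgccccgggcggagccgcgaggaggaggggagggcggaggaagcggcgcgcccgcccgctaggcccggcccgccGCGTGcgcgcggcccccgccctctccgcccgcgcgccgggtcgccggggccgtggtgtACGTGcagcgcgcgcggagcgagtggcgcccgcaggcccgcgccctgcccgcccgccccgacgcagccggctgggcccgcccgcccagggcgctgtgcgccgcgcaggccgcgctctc
Egln3: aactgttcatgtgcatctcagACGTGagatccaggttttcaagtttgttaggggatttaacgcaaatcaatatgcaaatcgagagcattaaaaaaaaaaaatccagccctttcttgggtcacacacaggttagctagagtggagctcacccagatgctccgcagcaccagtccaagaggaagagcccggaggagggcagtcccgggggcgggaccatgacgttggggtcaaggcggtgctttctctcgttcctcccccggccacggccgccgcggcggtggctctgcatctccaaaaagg

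Promoter windows were available for 9 of the 10 genes, 10 windows in all because Egln2 has 2 starts, and none was held for Epas1. Of these 10 windows, 7 held at least 1 match to either motif, beside 43.8% of all 32851 windows in the table. ACGTG occurred in 4 of 10 windows, beside 19.6% of all, and GCGTG in 5 of 10, beside 32.4% of all. Matches were counted on each strand, so a CACGTG, which reads the same on both strands, counted as 2 matches to ACGTG. Counted so, the outer Egln2 window had 3 matches to each motif and the Hif1a window had 3 to ACGTG. In both windows 2 of the ACGTG matches were a single CACGTG. The Arnt2, Vhl and Hif1an windows had none. Egln1 held 60 CpG dinucleotides in 300 bases at 86.0% GC, more than in 99.9% of all windows, whose median was 7 CpG. Arnt2 followed with 40 CpG, and the inner Egln2 window had the fewest, 4. The Hif3a window, at 14 CpG, was above the median of all windows, as was every other window but the inner Egln2 one. Both motifs contain a CpG, and the part of CpG content in the motif counts was not tested. A match is a description of letters and was not tested as a binding site.

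H3K4me3 lay at an end of 9 of the 10 genes, with Hif3a as the exception. Among all protein-coding genes 55.6% had it. A gene end was taken as 1000 bp on each side of either outer end of the annotated gene. H3K27me3 lay at an end of 2 of the 10, Epas1 and Hif3a, beside 13.6% of all genes. No gene of the 10 had succinyllysine at an end, where 5.42% of all genes had it, nor inside, where 5.4% did, so a count of 0 in 10 is near that background. No test was made on these counts, because the lists hold 1 observation each and the genes were chosen with earlier results of these data known.

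**Figure D1:**
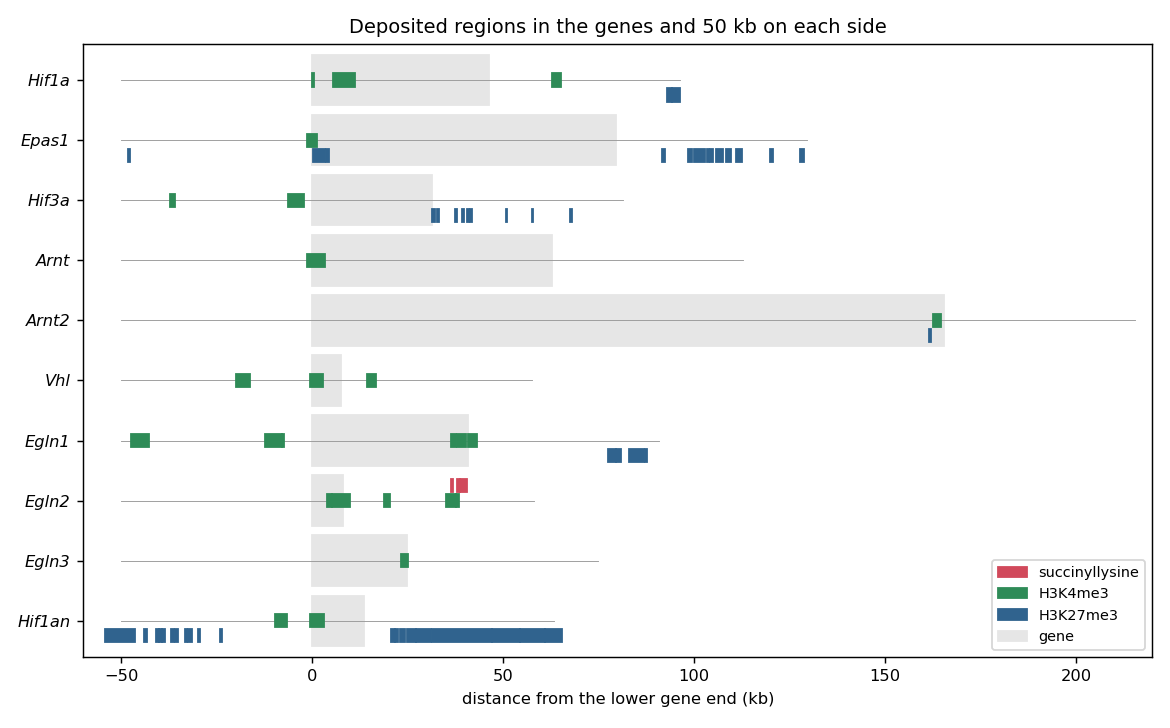
Deposited regions in and around the 10 genes. The horizontal axis is the distance in kb from the lower-coordinate end of each gene, grey blocks are genes, thin lines reach 50 kb to each side, and coloured blocks are succinyllysine, H3K4me3 and H3K27me3 regions (those narrower than 0.5 kb are drawn 0.5 kb wide). H3K27me3 fills the upper flank of Hif1an, and succinyllysine appears beside Egln2 alone.

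Among the oxygen-regulated subunits, the 3 alpha genes had 3 different arrangements. Hif1a (chromosome 12, 73901324 to 73947554), which encodes HIF-1α, the broadly expressed alpha subunit, had a 5700 bp H3K4me3 region over its annotated start (73906801 to 73912500). That start lies inside the outer limits of the gene, so this region counted as inside, and a second region of 500 bp lay at the lower outer end. The 5700 bp region reached 1066 bp upstream of the start and 4633 bp into the gene. Reach into the gene was longer than at 95.1% of the 11283 protein-coding starts that lay in an H3K4me3 region, whose median reach was 2442 bp. Hif1a had no H3K27me3 in the gene. Its upper flank had 2 H3K27me3 regions of 1100 and 2200 bp, 46.7 and 47.8 kb away and without a gap between them. The wider lay 24 bp from the end of Syt16, a synaptotagmin gene. With gaps of up to 1000 bp bridged, both belonged to a run of 5 regions (73994301 to 74006000). This run spanned 11.7 kb, touched Syt16 and went on past the 50 kb flank.

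Epas1 (chromosome 17, 86753864 to 86833410), which encodes HIF-2α, the alpha subunit known for its role in endothelium and in chromaffin tumours, carried both histone marks at its lower end. A 2500 bp H3K4me3 region (86752501 to 86755000) and a 3200 bp H3K27me3 region (86754001 to 86757200) shared 1000 bp. The H3K4me3 region covered the gene end itself, and H3K27me3 began 137 bp inside it and was followed by an 800 bp region after a further 200 bp without the mark. Epas1 was the only gene of the 10 where an H3K4me3 region at an end touched H3K27me3, against 1.92% of all protein-coding genes; both marks at gene ends, touching or not, occurred at 3.13%. With a requirement that 50% of the narrower region be shared, the count was 0. Whether both marks were on the same cells, or came from the fl/fl or the fl/wt line, cannot be told apart in a list for all 4 samples.

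Beyond the upper end of Epas1, 10 more H3K27me3 regions of 700 to 2900 bp lay 11990 to 48290 bp away, 12.8 kb in sum. With gaps of up to 1000 bp bridged, 6 of them formed a run of 11.4 kb (86852201 to 86863600), of which 78.1% was covered. The nearest other protein-coding gene to these regions was Tmem247, at 34.6 kb or more. In all, H3K27me3 covered 9.58% of Epas1 and its flanks, a higher share than around 84.1% of protein-coding genes.

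Hif3a (chromosome 7, 17030993 to 17062427), whose products include the inhibitory IPAS isoform, was the one member with H3K27me3 and no H3K4me3 at its ends, a state found at 10.4% of all genes. An 800 bp H3K27me3 region (17062401 to 17063200) covered the annotated start, reaching 773 bp upstream and 26 bp into the gene. It covered 277 of the 300 bases of the printed promoter, where H3K4me3 covered none. Upstream, 8 narrow H3K27me3 regions of 200 to 400 bp were scattered from 1.27 to 36.0 kb. Those from 19.2 kb on lay on the neighbouring gene Psg16. H3K4me3 below the gene lay at other genes: 4100 bp at Ppp5c, a protein phosphatase gene, 2.29 kb away, and 1300 bp at Ccdc8.

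**Figure D2:**
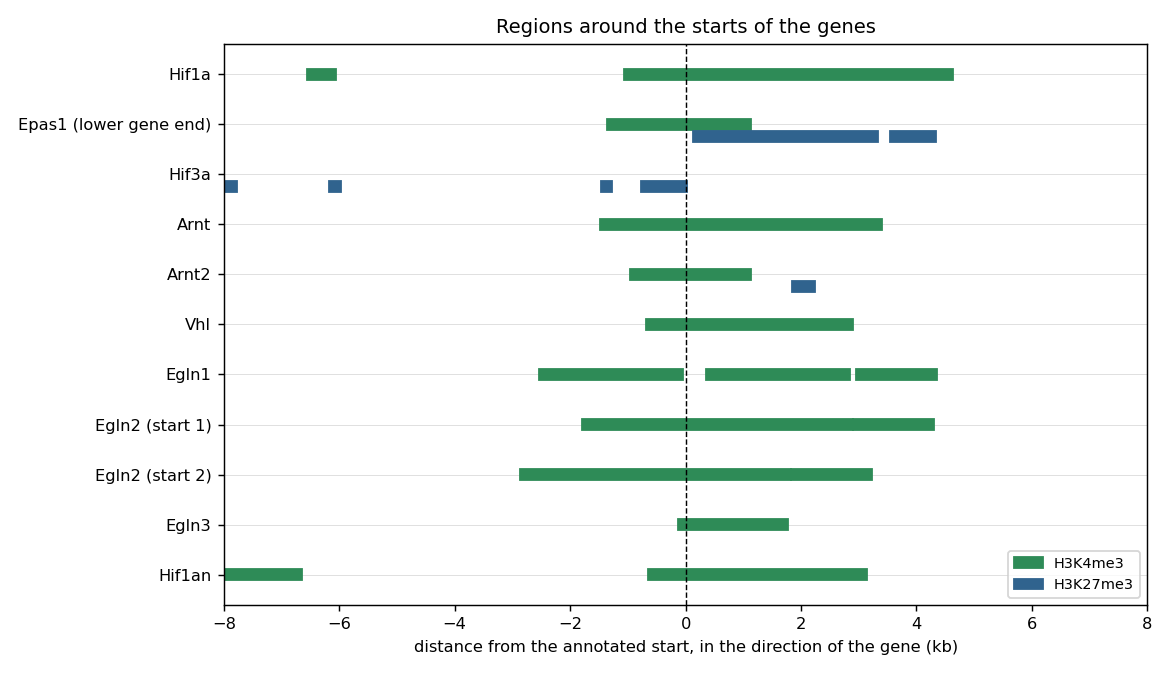
H3K4me3 and H3K27me3 regions within 8 kb of each annotated start. The horizontal axis is the distance in kb in the direction of transcription, the dashed line is the start, Egln2 has 2 rows for its starts, and Epas1 is drawn from its lower gene end. The start lies outside H3K4me3 at Hif3a, whose row has H3K27me3, and at Egln1, where a gap of 400 bp separates its H3K4me3 regions.

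The constitutive partner genes differed from each other in width. Arnt (chromosome 3, 95434367 to 95497240), encoding HIF-1β, had a single 4900 bp H3K4me3 region (95432901 to 95437800) from 1489 bp upstream of the start to 3410 bp into the gene. It was wider than the widest such region at 78.0% of the 12163 genes with H3K4me3 at an end, whose median was 3500 bp. No H3K27me3 or succinyllysine lay in Arnt or its flanks, and the nearest H3K27me3 region was 537 kb away. Arnt2 (chromosome 7, 84246274 to 84411741), the paralogue known for its neural expression and the longest of the 10 genes at 165.5 kb, had a 2100 bp H3K4me3 region (84408901 to 84411000) over its start. This region was wider than at 17.6% of marked genes, and it reached 1137 bp into the gene, farther than at 12.6% of starts in H3K4me3. An H3K27me3 region of 400 bp (84407801 to 84408200) followed inside Arnt2, beginning 1838 bp from the start and not overlapping H3K4me3. It was the only H3K27me3 region of Arnt2 and its flanks.

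Vhl and Hif1an had similar H3K4me3 at their starts but different surroundings. Vhl (chromosome 6, 113623994 to 113631634), which encodes the substrate-binding subunit of the ligase, had a 3600 bp region from 693 bp upstream to 2906 bp into the gene. Hif1an (chromosome 19, 44562854 to 44576274) had a 3800 bp region from 653 bp upstream to 3146 bp into the gene. In width they exceeded 51.8% and 56.4% of marked genes, near the middle of the distribution.

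The surroundings of Vhl held no H3K27me3, whose nearest region was 111 kb away. Its 2 other H3K4me3 regions lay at other genes, 3500 bp at Brk1 and 2300 bp at Irak2. Hif1an, with no H3K27me3 at its ends or inside, had 20 H3K27me3 regions in its flanks. H3K27me3 covered 46.0% of the gene with its flanks, more than around 98.1% of protein-coding genes.

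The H3K27me3 beyond the upper end of Hif1an began 7.13 kb from the gene with regions of 900 to 15700 bp. With gaps of up to 1000 bp bridged, these belonged to a run of 28 regions from 44583401 to 44862000 that spanned 278.6 kb, was covered to 98.6%, and held Pax2, a developmental transcription factor gene of kidney and eye, as its only protein-coding gene. This run was the longest of 52031 H3K27me3 runs in the list. It was second at 258.4 kb when gaps of up to 500 bp were bridged. Where no gap was bridged, the longest stretch there was 50.4 kb and ranked seventh. Below Hif1an, 11 regions of 400 to 7900 bp lay 23.8 to 46.4 kb away, the widest of them at Wnt8b, a Wnt ligand gene. Those 23.8 to 43.3 kb away lay on the gene Sec31b. The 3100 bp H3K4me3 region on that side lay at Ndufb8. Pax2, Wnt8b and the run were singled out after their values were seen.

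**Figure D3:**
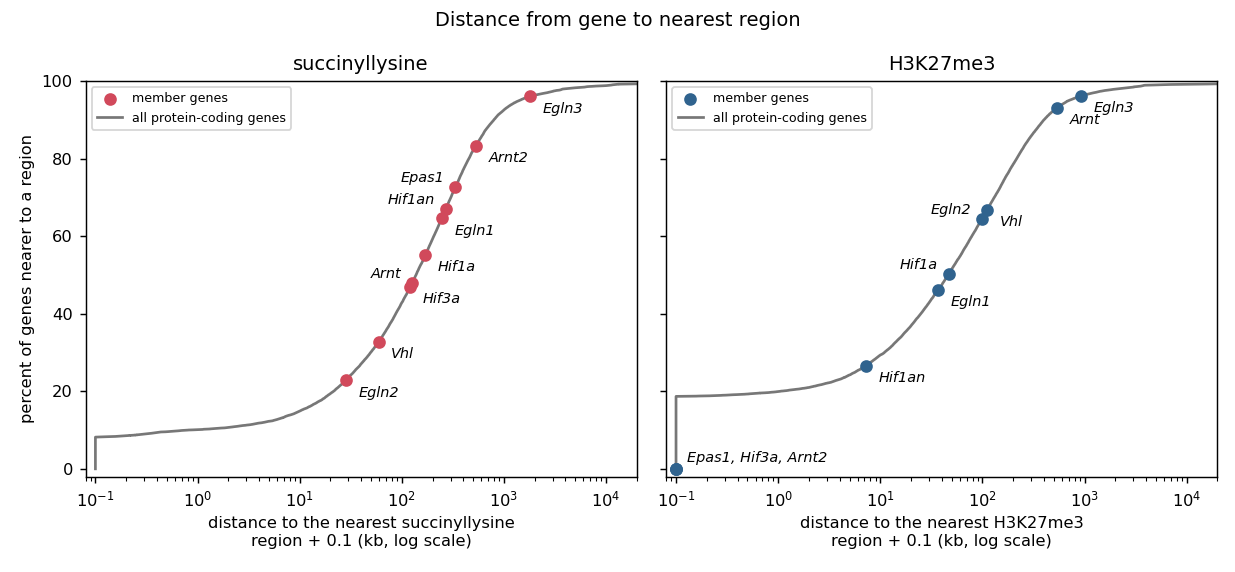
Distance from each gene to the nearest succinyllysine region (left) and H3K27me3 region (right). The horizontal axis is distance in kb plus 0.1 on a log scale, the vertical axis is the percentage of protein-coding genes that lie nearer to a region, points are the 10 genes and the line is all protein-coding genes. The points run from Egln2 at 28.1 kb to Egln3 at 1810 kb from succinyllysine, and Epas1, Hif3a and Arnt2 overlap H3K27me3.

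The prolyl hydroxylase genes all had H3K4me3 at an end and no H3K27me3 at an end or inside. Egln1 (chromosome 8, 124908587 to 124949254), which encodes PHD2, the main hydroxylase of HIF-1α in normoxia, had 3 separate H3K4me3 regions around its start. They were 2500 bp upstream (124949301 to 124951800), 2500 bp inside (124946401 to 124948900) and 1400 bp farther in (124944901 to 124946300), a run of 6.9 kb when small gaps were bridged. The annotated start fell in the 400 bp gap between the first of these, 46 bp away, and the second, 353 bp away. A start in a gap of at most 500 bp between H3K4me3 regions occurred at 94 of the 11872 starts with H3K4me3 within 1000 bp, or 0.792%. This count and its limit of 500 bp were not among the planned results. The gap takes in part of the CpG-rich promoter printed above, of which 204 of 300 bases lay in H3K4me3; whether its base composition moved with the gap was not tested. The upstream flank of Egln1 held 4 H3K27me3 regions of 400 to 3900 bp, 36.7 to 46.4 kb away and at least 16.9 kb from Tsnax, the nearest other protein-coding gene. On the other side, H3K4me3 regions of 4700 bp and 4600 bp lay at Gnpat and Sprtn.

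Egln2 (chromosome 7, 27158658 to 27166802), which encodes PHD1, had a 4700 bp H3K4me3 region (27163901 to 27168600) that covered both of its starts and reached the end of Rab4b, a Rab GTPase gene. A 1400 bp region continued it inside the gene with no gap, for 6100 bp in all. Such abutting regions were common in the lists, at 13.9% of H3K4me3, 23.3% of H3K27me3 and 7.39% of succinyllysine regions, and no source used here says why neighbouring stretches were listed apart. At 75.1% of marked genes the widest region was narrower than 4700 bp. No H3K27me3 lay in the gene or its flanks.

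Egln3 (chromosome 12, 54178981 to 54203874), which encodes PHD3, a hydroxylase induced by HIF in many cells, had a single 1900 bp H3K4me3 region (54202101 to 54204000). It reached 126 bp upstream of the start, less than at all but 8.94% of starts in H3K4me3, and 1773 bp into the gene. It covered 176 of the 300 bases of the printed promoter. Egln3 was the most isolated gene of the 10: the nearest H3K27me3 was 927 kb away, farther than for 96.2% of genes, and the nearest succinyllysine 1810 kb away, farther than for 96.1%.

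**Figure D4:**
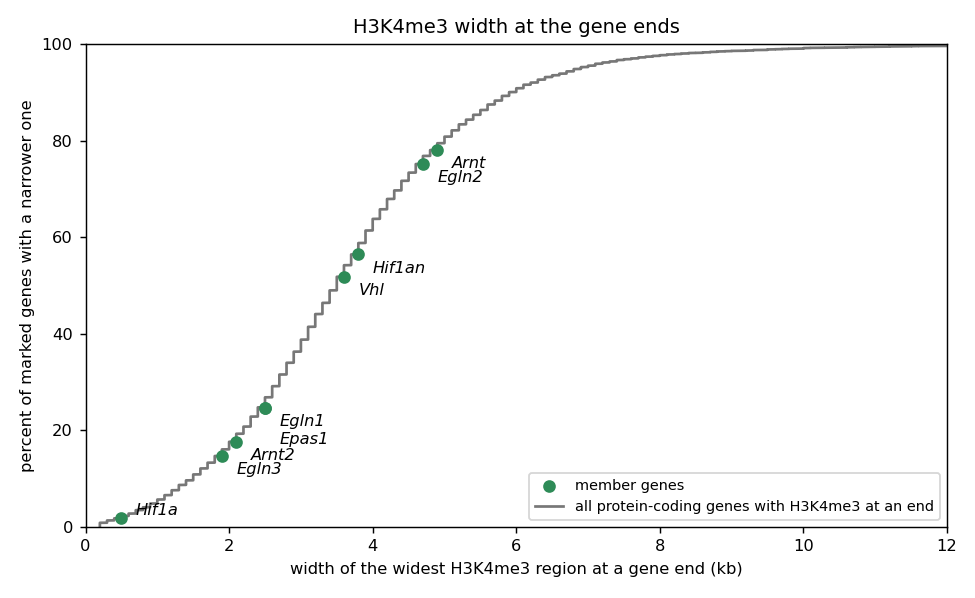
Width of the widest H3K4me3 region at a gene end. The horizontal axis is width in kb, the vertical axis is the percentage of the 12163 marked genes with a narrower region, points are the 9 genes with H3K4me3 at an end, and the line is all marked protein-coding genes. Points run from Hif1a at 500 bp, whose 5700 bp region at an inner start is not counted here, to Arnt at 4900 bp; Egln1 and Epas1 share a point at 2500 bp.

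Across the genes, the median width of the widest H3K4me3 region at an end was 2500 bp in the 9 marked members, against 3500 bp in all marked genes. This order turned with the measure: the median was 3600 bp over the 9 members with Hif1a taken at its 5700 bp region, and 3800 bp over the 7 members with a region over an annotated start, against 3500 bp over all 9518 genes with such a region. Within 1000 bp of the 10 annotated starts of 9 members, H3K4me3 lay at 9, beside 55.8% of 21263 starts of protein-coding genes. H3K27me3 lay at 1, beside 10.3%, and succinyllysine at 0, beside 5.04%. Of these 10 starts, 8 in 7 genes had the start base inside an H3K4me3 region, beside 53.1% of the 21263. The region reached farther into the gene than upstream at 7 of these 8, the inner Egln2 start being the other, and this was so at 82.6% of starts in H3K4me3. Inside the genes, away from the ends, H3K4me3 occurred in 3 members (Hif1a, Egln1 and Egln2), beside 15.2% of all genes, and H3K27me3 in 2 (Epas1 and Arnt2), beside 15.3%. The members had a median length of 36.1 kb, against 17.2 kb for all genes, and the part of length in these counts was not tested.

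Beyond the genes, H3K4me3 lay in the flanks of 6 members, beside 67.5% of all genes, and 11 of these 12 regions were at the end of another protein-coding gene. H3K27me3 lay in the flanks of 5, beside 49.5% of all genes, and 2 of these 45 regions, at Syt16 and Wnt8b, were at the end of another gene. Others lay inside another gene, away from its ends: on Sec31b below Hif1an and on Psg16 above Hif3a. The H3K27me3 regions ranged from 200 to 15700 bp with a median of 900 bp, and 20 of the 45 belonged to Hif1an. For either mark, the share of flank regions at the end of another gene was not counted around all genes.

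Succinyllysine appeared in the flank of 1 member, Egln2, where 24.3% of all genes had it in a flank. Its 3 regions lay 28.1 to 30.6 kb above Egln2, at chromosome 7, 27194901 to 27195600 (700 bp), 27196501 to 27197300 (800 bp) and 27197401 to 27199200 (1800 bp). The first lay at BC024978 and wholly within H3K4me3. The second, with 600 bp on H3K4me3, lay 230 bp from the end of Snrpa, which encodes a spliceosomal U1 protein, and the widest lay 1130 bp from that end and off H3K4me3. For the other 9 genes the nearest succinyllysine region was 59.1 kb (Vhl) to 1810 kb (Egln3) away. The median over the 10 genes was 208 kb, against 138 kb over all protein-coding genes.

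**Figure D5:**
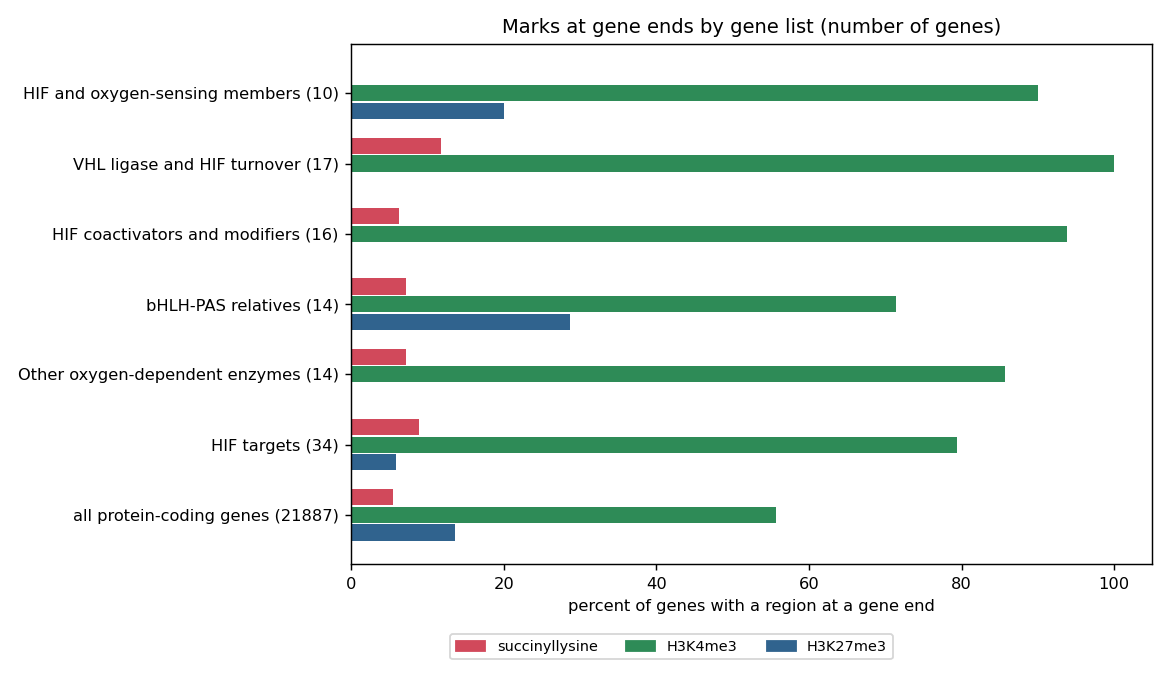
Share of genes with a region at a gene end, by list. The horizontal axis is the percentage of genes, bars are succinyllysine, H3K4me3 and H3K27me3, and the number of genes is in parentheses. The 10 members have no succinyllysine bar, and H3K27me3 bars appear for the members, the bHLH-PAS relatives, the HIF targets and all genes.

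The wider pathway was read from 5 lists holding 95 genes, none of them a member. Of the 95 genes, 81 had H3K4me3 at an end, beside the 55.6% of all genes. H3K27me3 lay at an end of 6, beside 13.6% of all genes, and succinyllysine at an end of 8, beside 5.42%. The VHL ligase and HIF turnover genes all had H3K4me3, 17 of 17, with the widest region at Stub1, a chaperone-linked ubiquitin ligase gene (9000 bp). In this list succinyllysine lay at Rbx1 (1100 bp), the RING subunit of the VHL ligase, and at Siah1b (200 bp), a RING ubiquitin ligase gene.

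Of the HIF coactivators and modifiers 15 of 16 had H3K4me3 at an end, widest at Pkm (9400 bp), a pyruvate kinase gene. Hdac4 had it inside instead, and the acetyltransferase gene Kat5 had succinyllysine (1300 bp). Of 14 other oxygen-dependent enzymes 12 had H3K4me3 at an end, widest at Jmjd6 (9700 bp), and Kdm4c and Plod2 had it inside. Succinyllysine lay at Kdm5a (1100 bp), a histone H3K4 demethylase gene. Neither list had H3K27me3 at an end.

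The bHLH-PAS relatives, named for the structural family of the HIF subunits, had H3K4me3 at an end in 10 of 14 genes and H3K27me3 in 4. The shares of all genes were 55.6% and 13.6%. This list also holds the Per genes, which have the PAS domain without the bHLH domain. Each Per gene had H3K4me3 and no H3K27me3 at an end. Sim1 and Npas1 had H3K27me3 alone (19100 and 1200 bp), and Npas2 and Npas3 had both marks. At Npas3 the H3K4me3 region (2700 bp) shared 1700 bp with H3K27me3, and at Npas2 the marks did not touch. Sim2 had the widest H3K4me3 region (8100 bp), which shared 4100 bp with H3K27me3, although no H3K27me3 region was at an end of the gene. Npas4 had neither mark, and Arntl, the circadian partner BMAL1, had H3K4me3 inside. Succinyllysine lay at Ahrr (1400 bp), the repressor of the aryl hydrocarbon receptor.

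Of 34 HIF targets 27 had H3K4me3 at an end, widest at Lox (6800 bp), which encodes lysyl oxidase. Of the 7 without it, Pfkfb4, Ldha, Car9, Car12 and Pdgfb had it inside, Angptl4 had neither histone mark, and Epo, the erythropoietin gene, had H3K27me3 (1900 bp). Tgfa had both marks at an end, H3K27me3 of 300 bp and H3K4me3 of 1600 bp, and 300 bp of the H3K4me3 region was shared with H3K27me3. Targets with succinyllysine at an end included Lox (1900 bp) and Ankrd37 (1000 bp). In share, the members stood at 0 of 10 for succinyllysine, beside 8 of 95 pathway genes and 5.42% of all genes. A difference of that size was not tested.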

How the data were processed

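Bowtie2 2.2.3 and the mm10 build are named in the submitters' processing notes. The deposited lists hold start and end positions of regions, read as 1-based and inclusive on a 100 bp grid. No source used here names the peak caller or threshold, or says whether input was used and how the authors combined the 4 ChIP samples of an antibody. Read depth is unknown.

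Genes were 21887 protein-coding genes of the RefSeq table for GRCm38.p6 (outer ends, no strand), and strand and starts came from RefSeq promoter windows for 17492 of them. A region touching 1000 bp on either side of a gene end was at the end, one touching only the rest of the gene was inside, and others within 50 kb were beyond. Counting used Python 3.11.15 with pandas 2.3.3 and put 200 of 200 regions planted on simulated data into the right class.

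The members and lists were chosen with earlier results of these data known. Named genes were the members, neighbours at succinyllysine or at the widest region of a window, and, per list, genes with succinyllysine, with H3K27me3 or without H3K4me3 at an end, and the widest H3K4me3. Other neighbours were named after their values were seen. Alternatives were other windows, flanks, merging, midpoints and widths. One list name (Bmal2) was not matched, and its older name was. Shares among all genes are background, with no test. One gene that this rule names is not reported here.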

Additional observations from a re-analysis of the deposited data

How the results depend on the processing

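Of 61 alternatives to 15 results, 43 kept the value, counts and the run below within 1.5 times and the median width within 1 SD of the members, and 18 did not. The alternatives of the median width counted as kept by this rule, although its order against all genes turned. No paired analysis was possible because each list is a set of positions for all 4 samples. The member counts below were not repeated over all genes, apart from annotated starts, so the shares given above belong to the main settings. With region midpoints in place of any overlap, H3K4me3 was at an end of 5 members and inside 6, against 9 and 3, and H3K27me3 was at an end of 1, against 2. By annotated starts, which exclude Epas1, H3K27me3 was at 1 member. Regions wider than their list's median left H3K27me3 inside 1 member. With flanks of 20 kb, 0 members had succinyllysine beyond the gene (0 regions), 3 had H3K27me3, and 18 H3K27me3 regions remained. With flanks of 100 kb, succinyllysine lay beyond 2 members (7 regions), with 44 H3K4me3 and 104 H3K27me3 regions. Merging within 1000 bp gave 1 succinyllysine and 25 H3K27me3 regions. H3K4me3 at an end met H3K27me3 in 0 members when 50% of the narrower region had to be shared and in 2 when a gap of 1000 bp was allowed. The longest H3K27me3 run above Hif1an was 50.4 kb with no gap bridged (alternative chosen after seeing the data, as were those of the median H3K4me3 width, 3600 and 3800 bp against 2500 bp). Beyond the smaller or larger windows themselves, the cause of these shifts was not tested. Succinyllysine at an end and inside was 0 in every alternative run. The nearest succinyllysine region to any member lay 28.1 kb away, so these alternatives could give no other count. They are among the 43.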
